A study of Homo sapiens with 12 samples.

Results

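The heat shock proteins examined here are molecular chaperones of 769-P cells, together with the transcription factor HSF1 and the co-chaperone BAG3. The 10 members were chosen by gene symbol out of 60617 gene IDs counted by RNA sequencing. They are HSPA1A, HSPA1B, HSPA8, HSP90AA1, HSP90AB1, HSPH1, DNAJB1, HSPB1, HSF1 and BAG3, and all 10 symbols were found in the tables.

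769-P is an established human cell line of clear cell renal carcinoma, and all 12 libraries came from it, grown in RPMI1640 with 10% fetal bovine serum and antibiotics at 37 °C and 5% CO2. The 4 groups of 3 libraries are labelled siDRAIC, siDRAIC-NC, sihnRNPA2B1 and sihnRNPA2B1-NC, after small interfering RNAs (siRNAs) named for the long non-coding RNA DRAIC and the RNA-binding protein hnRNPA2B1. Each NC group was taken as the control of the siRNA it is named with, although the sources used here do not give what NC stands for, nor the sequences, dose or time of the siRNAs. No heat or other stress treatment is named in the labels, which also do not say whether the replicates were separate cultures, so every p-value rests on the spread among these libraries alone, which may be technical.

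Heat shock proteins bind unfolded or partly folded proteins and keep them from aggregating. HSF1 is held inactive in unstressed cells, forms trimers when unfolded proteins build up, and then binds inverted repeats of the unit GAA (heat shock elements) upstream of chaperone genes. HSP70 proteins work in cycles that J-domain proteins such as DNAJB1 start and that nucleotide exchange factors such as HSPH1 and BAG3 end, and HSP90 takes over many of the clients. Many tumours carry high levels of these proteins.

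The start regions of the members were searched for heat shock elements, because that is the sequence through which HSF1 is known to act on this family. RefSeq windows of 300 bases around annotated starts (GRCh38.p14, 250 of them upstream) were found for 9 members, in 14 windows. A row of 3 units was searched as GAANNTTCNNGAA and TTCNNGAANNTTC, which are the same site on opposite strands, and a pair of units as GAANNTTC and TTCNNGAA, each its own reverse complement and each contained in the longer motifs. The 3-unit motif was present in windows of 3 of these 9 members, HSPA8, HSP90AA1 and HSP90AB1, against 0.608% of 27305 genes with a window. The 2-unit motif was present in 7 of 9, against 16.2% of genes, and the members lacking it in these windows were BAG3 and HSPH1. The matches describe letters in these windows and are not evidence of binding. They are printed 5′ to 3′ on the gene's strand with every match in capitals. The HSPA8 and HSP90AA1 stretches are short because the matches lie within exons that GENCODE 29 annotates.
HSPA8, chr11:123062170-123062199, minus strand: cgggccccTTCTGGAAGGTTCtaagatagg
HSP90AA1, chr14:102087104-102087133, minus strand: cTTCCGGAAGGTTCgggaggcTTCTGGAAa
HSP90AB1, chr6:44247774-44247863, plus strand: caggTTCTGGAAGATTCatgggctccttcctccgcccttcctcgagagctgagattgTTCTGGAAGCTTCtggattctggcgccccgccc

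Within these stretches, HSPA8 shows the row of 3 units nearest its start, out of 2 such rows in its window, HSP90AA1 a row of 3 followed by a pair, and HSP90AB1 rows of 3 at both ends of a spacer. The HSP90AB1 matches belong to the furthest downstream of its 3 annotated starts, and the HSP90AA1 matches to the downstream of 2 starts. DNAJB1 and HSPB1 carried 2-unit matches only, and so did the inducible HSP70 genes HSPA1A and HSPA1B, whose stretches are shown to let the near-identity of those genes be seen.
DNAJB1, chr19:14518421-14518506, minus strand: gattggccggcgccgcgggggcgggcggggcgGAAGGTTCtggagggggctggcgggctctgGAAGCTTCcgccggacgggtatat
HSPB1, chr7:76302429-76302518, plus strand: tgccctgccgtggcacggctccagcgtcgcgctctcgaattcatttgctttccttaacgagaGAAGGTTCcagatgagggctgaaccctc
HSPA1A, chr6:31815375-31815463, plus strand: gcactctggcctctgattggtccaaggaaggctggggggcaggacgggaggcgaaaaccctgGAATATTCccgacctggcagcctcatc
HSPA1B, chr6:31827571-31827660, plus strand: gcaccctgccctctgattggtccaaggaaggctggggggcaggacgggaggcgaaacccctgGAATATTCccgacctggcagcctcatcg

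Library totals ran from 30798303 to 42760528 counts. HNRNPA2B1, the target of its siRNA, had 291, 307 and 274 counts-per-million (CPM, which scales counts to the library total) in the sihnRNPA2B1 libraries, against 428, 396 and 435 CPM in sihnRNPA2B1-NC (log2 fold change -0.56, SE 0.05, edgeR adjusted p = 2.16e-09). DRAIC had 9 summed counts in the siDRAIC libraries against 5 in siDRAIC-NC, or 1.76 times as many (exact 95% interval 0.531 to 6.70). At this depth no knockdown could be detected, and "the libraries labelled siDRAIC" names that group by its label only. The kidney transcription factor PAX8 averaged 437 to 500.3 CPM over the groups, while CA9, a marker of clear cell renal carcinoma, had at most 1 count in any library. Of 10 renal markers, 8 averaged at least 10 CPM over all 12 libraries together. Of the 8 that were tested, 1 was higher and 6 were lower in sihnRNPA2B1-NC than in siDRAIC-NC by edgeR. Of all 17091 tested genes, 25.0% were called higher and 26.6% lower there. The 8 markers of other cell types summed to at most 1.93 CPM in any library. Counts of 2 outnumbered counts of 1 in all 12 libraries (2029 to 2275 against 1275 to 1546 genes), so low counts tended to come in pairs. Counting intervals, which treat each count as independent and cover counting error only, are then too narrow.

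The stress-inducible HSP70 genes HSPA1A and HSPA1B were close to absent from the counts in all 4 groups. HSPA1A (ENSG00000204389; chromosome 6, 31815464 to 31817946, plus strand, GRCh38) had 6, 4 and 6 counts in the libraries labelled siDRAIC and 10, 1 and 6 in siDRAIC-NC. The 16 against 17 summed counts gave a ratio of 0.923 (exact 95% interval 0.436 to 1.94), and the groups overlapped. In the hnRNPA2B1 experiment all 6 libraries had 0 counts, which allows up to 0.0268 CPM over the sihnRNPA2B1 group and 0.0283 CPM over sihnRNPA2B1-NC. HSPA1B (ENSG00000204388; chromosome 6, 31827735 to 31830255, plus strand) had 0 counts in the libraries labelled siDRAIC, 2, 0 and 3 in siDRAIC-NC, and 0 in the 6 libraries of the other experiment.

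These levels are uncertain, because the 2 genes share most of their sequence. Of all stretches of 100 bases in the HSPA1A transcript, 69.9% occur exactly in HSPA1B. For HSPA1B, 72.7% occur in another annotated gene, and 920 bases of its exons overlap AL671762.1. The sources used here do not give how reads matching several genes were counted, and the part of shared reads in these low counts was not tested. BAG6, another chaperone gene on the same chromosome, had 262 ± 27.1 CPM in the libraries labelled siDRAIC and 287 ± 29.8 CPM in siDRAIC-NC, and 212 ± 5.88 CPM in sihnRNPA2B1 and 233 ± 7.77 CPM in sihnRNPA2B1-NC (SD, n = 3 each). Neither inducible gene passed the filter on low counts, so tests cover 8 of the 10 members. In the other 8, shared stretches made up 0% to 4.63% of the transcript, the most in HSP90AA1.

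Compared per length, as transcripts-per-million (TPM, counts divided by the summed length of annotated exons), HSP90AB1 had the highest level of the members in every group. It averaged 1801 ± 375 TPM in the libraries labelled siDRAIC, 2266 ± 278 TPM in siDRAIC-NC, 1405 ± 32.8 TPM in sihnRNPA2B1 and 1433 ± 30.8 TPM in sihnRNPA2B1-NC (SD, n = 3 each). HSPB1, HSPA8 and HSP90AA1 followed in that order in all 4 groups. In the libraries labelled siDRAIC the TPM ranges of HSP90AB1 and HSPB1 overlapped, as did those of HSPB1 and HSPA8. In the other 3 groups these neighbours were separate.

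HSF1, DNAJB1, BAG3 and HSPH1 followed, at means between 48.0 TPM (HSPH1 in sihnRNPA2B1-NC) and 154 TPM (HSF1 in sihnRNPA2B1-NC). In both groups of the DRAIC experiment, neighbours among DNAJB1, HSF1, BAG3 and HSPH1 overlapped. In both groups of the hnRNPA2B1 experiment HSF1 stood apart from the next member. It had 128 ± 3.23 TPM in sihnRNPA2B1, above DNAJB1 at 60.3 ± 0.938 TPM. In sihnRNPA2B1-NC it had 154 ± 11.5 TPM, above BAG3 at 69.2 ± 3.78 TPM. The order of HSPA8 depends on the length used. Divided by its longest annotated transcript, HSPA8 had 1826 TPM in the libraries labelled siDRAIC and 1980 TPM in siDRAIC-NC, the highest of the 10 members in both. On that length HSPA8 also lay above HSPB1 in sihnRNPA2B1 (462 against 334 TPM) and sihnRNPA2B1-NC (339 against 263 TPM), below HSP90AB1.

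**Figure D1:**
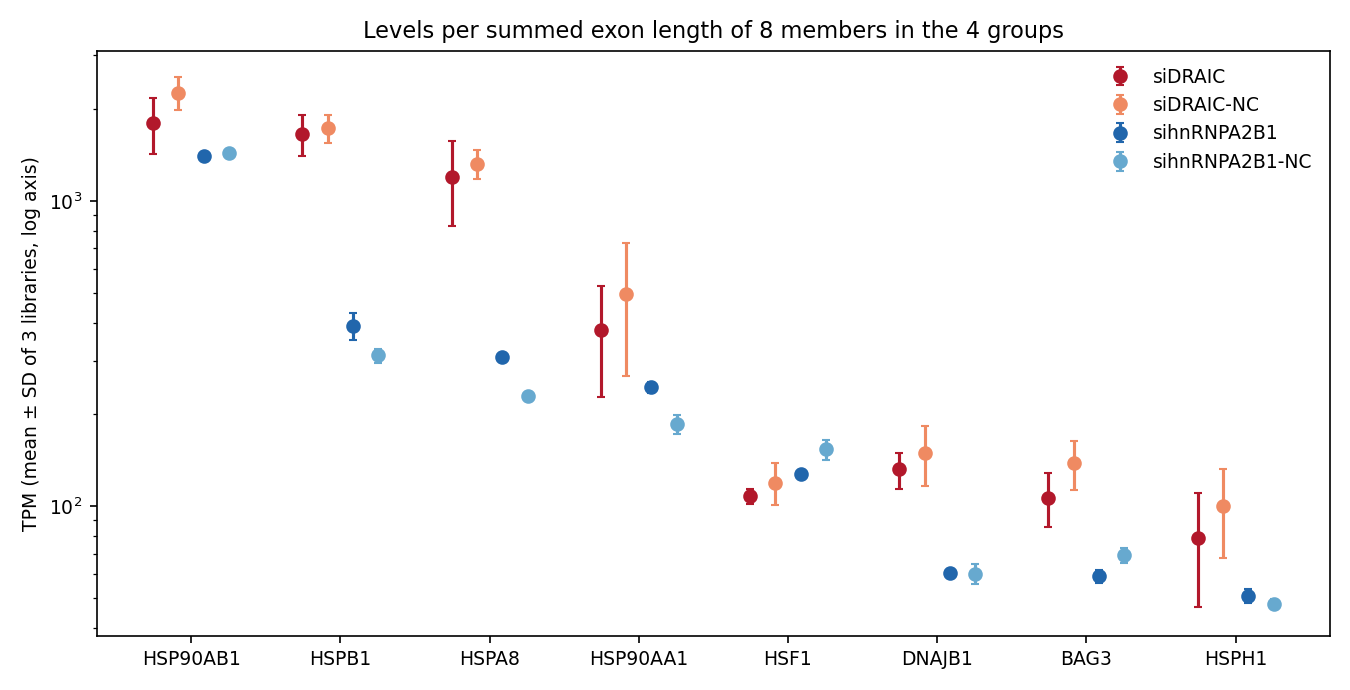
Mean level per summed exon length (TPM, log axis) of the 8 members above the low-count filter in the 4 groups, with bars for the SD of 3 libraries. HSP90AB1 is highest in each group on this length (HSPA8 is highest in siDRAIC and siDRAIC-NC on the longest transcript). The means of all plotted members except HSF1 lie lower in both groups of the hnRNPA2B1 experiment than in both groups of the DRAIC experiment.

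After hnRNPA2B1 siRNA, the constitutive HSP70 gene HSPA8, the inducible HSP90 gene HSP90AA1 and the small heat shock gene HSPB1 rose, and HSF1 and BAG3 fell. The changes were small, between 0.833 and 1.34 times the control level. In these bulk samples, fewer cells expressing a gene and less RNA per cell cannot be told apart. HSP90AB1, HSPH1 and DNAJB1 did not pass the test. A gene was called when its p from edgeR's quasi-likelihood test was below 0.05 after Benjamini-Hochberg adjustment across every gene tested. By that rule 5 of 8 tested members were called, where 30.4% of 15710 genes were called (15.1% higher, 15.4% lower). The members' median log2 change was 0.05, against 0.01 for all genes tested.

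HSPA8 (ENSG00000109971; chromosome 11, 123057489 to 123063230, minus strand) encodes the HSP70 protein present in all cells without stress, and its exons overlap SNORD14C and SNORD14D. It had 395, 399.1 and 410.0 CPM in the sihnRNPA2B1 libraries, against 294, 291 and 292 CPM in sihnRNPA2B1-NC. All 3 siRNA libraries lay above all 3 controls. HSPA8 rose 1.34-fold (log2 0.43, SE 0.05, edgeR adjusted p = 1.03e-07). HSP90AA1 (ENSG00000080824; chromosome 14, 102080738 to 102139699, minus strand, with exons overlapping WDR20 on the other strand) encodes the stress-inducible cytosolic HSP90. Its levels were 360.0, 344 and 333 CPM after the siRNA, against 259, 238 and 271 CPM in the controls, again without overlap. It rose 1.32-fold (log2 0.40, SE 0.05, edgeR adjusted p = 8.33e-07).

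HSPB1 (ENSG00000106211; chromosome 7, 76302544 to 76304295, plus strand), known as HSP27, holds unfolded proteins without using ATP. It measured 192, 157 and 166 CPM in the sihnRNPA2B1 libraries and 129.7, 143 and 128 CPM in sihnRNPA2B1-NC. The groups did not overlap, and replicate 1 was the highest of the siRNA libraries. HSPB1 rose 1.25-fold (log2 0.33, SE 0.06, edgeR adjusted p = 0.000273).

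HSF1 (ENSG00000185122; chromosome 8, 144291591 to 144314722, plus strand) is the main transcription factor of the heat shock response. Its exons overlap DGAT1 and AC233992.1 on the other strand, and the sources used here do not give whether counting used strand. It had 181, 177 and 188 CPM in the sihnRNPA2B1 libraries, against 209, 233 and 199 CPM in sihnRNPA2B1-NC, every siRNA library below every control. HSF1 fell by 0.26 on the log2 scale (SE 0.06, edgeR adjusted p = 0.00104). BAG3 (ENSG00000151929; chromosome 10, 119651370 to 119677819, plus strand) joins HSP70 to small heat shock proteins and to selective autophagy. It had 41.3, 45.2 and 44.3 CPM after the siRNA and 46.8, 50.4 and 52.1 CPM in the controls, with no overlap. BAG3 fell by 0.22 on the log2 scale (SE 0.07, edgeR adjusted p = 0.0129).

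The other 3 tested members stayed near their controls. HSP90AB1 (ENSG00000096384; chromosome 6, 44246166 to 44253888, plus strand), the HSP90 gene expressed without stress, had 1104, 1113 and 1160 CPM in sihnRNPA2B1 and 1127, 1098 and 1129 CPM in sihnRNPA2B1-NC (log2 -0.02, SE 0.05, edgeR adjusted p = 0.758). DNAJB1 (ENSG00000132002; chromosome 19, 14514770 to 14529770, minus strand, overlapping TECR and MIR639), the J-domain partner that loads clients onto HSP70, had 59.4, 60.2 and 58.9 CPM against 62.7, 55.9 and 54.9 CPM (log2 0.01, SE 0.07, edgeR adjusted p = 0.942). Both genes overlapped between the groups. HSPH1 (ENSG00000120694; chromosome 13, 31134974 to 31162388, minus strand), the HSP110 exchange factor, had 122, 112 and 111 CPM against 101, 105 and 109 CPM. Its groups were separate, yet the log2 change of 0.09 (SE 0.06, edgeR adjusted p = 0.224) did not pass. In all, 6 of 8 tested members had no overlap between groups, 4 of them higher and 2 lower, against 42.0% of tested genes (23.7% higher, 18.3% lower).

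The calls rest on the spread within this experiment. Fitted together with the 6 libraries of the DRAIC experiment, which vary more, the same changes kept their sizes but 0 of 8 members were called (HSPA8 0.42, edgeR adjusted p = 0.183), along with 283 of 17091 genes. Of the 8 members, 1 was below 0.05 unadjusted in that edgeR fit, as were 2598 of 17091 genes. Without sihnRNPA2B1 replicate 1 the BAG3 call was lost (log2 -0.18, edgeR adjusted p = 0.0935). The share of counts from mitochondrial genes was also higher after the siRNA, at 7.53% to 7.87% in sihnRNPA2B1 against 6.05% to 6.27% in sihnRNPA2B1-NC, and its part in these changes was not tested.

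**Figure D2:**
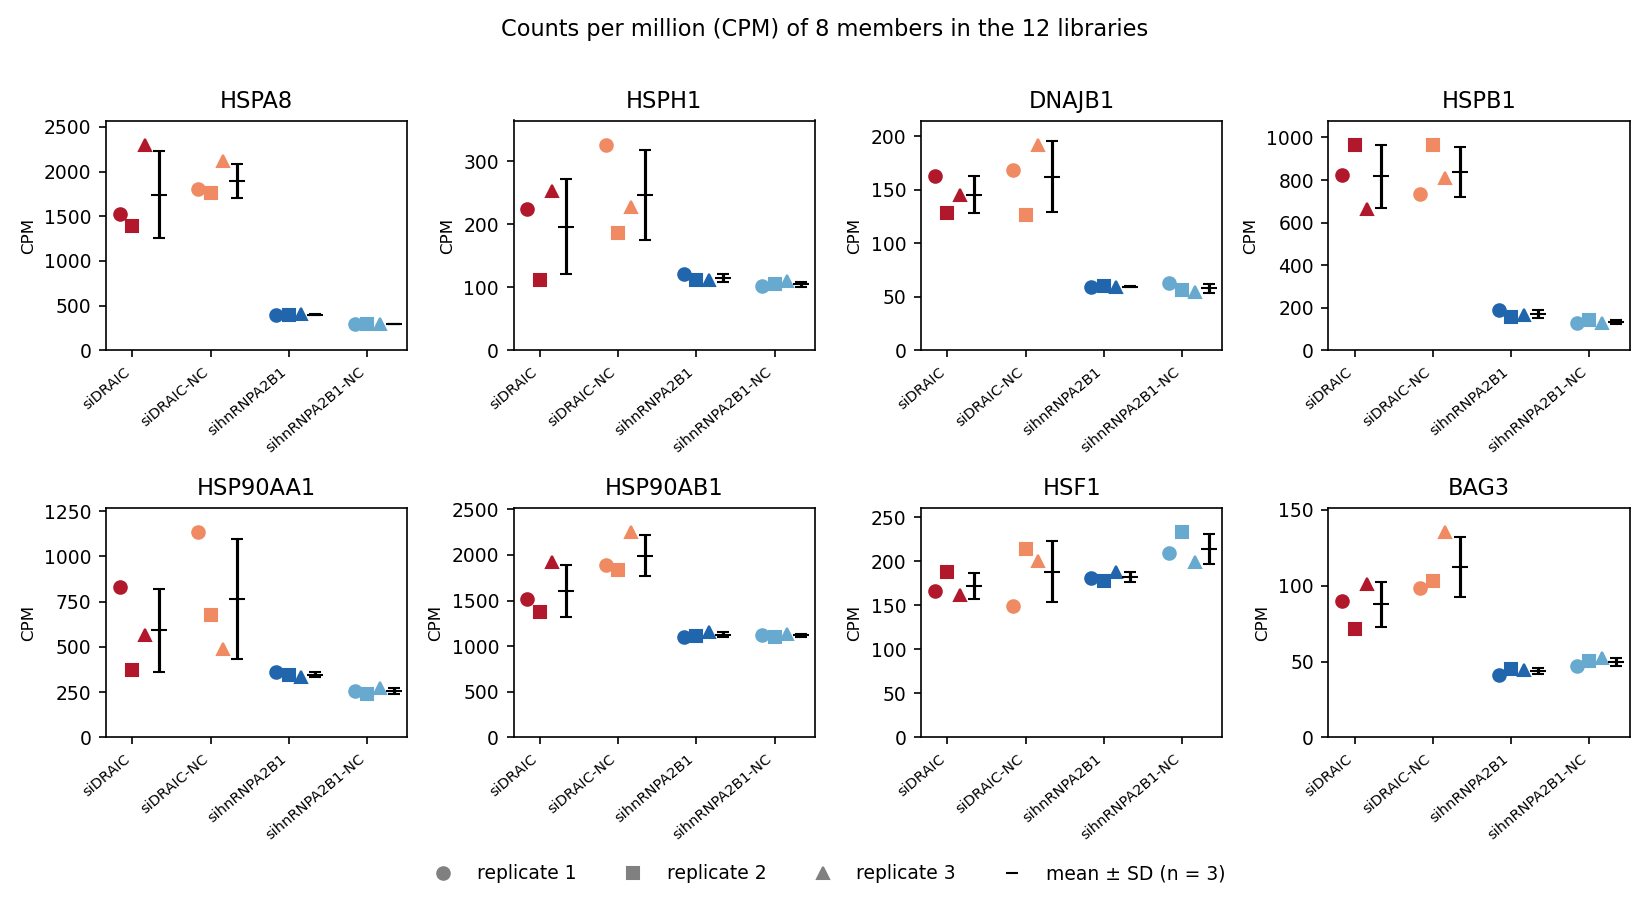
Level in CPM of the 8 tested members in each of the 12 libraries, with marker shapes for replicate numbers and black bars for the mean ± SD of 3 libraries. The sihnRNPA2B1 libraries lie above sihnRNPA2B1-NC for HSPA8, HSP90AA1, HSPB1 and HSPH1 (the last not called) and below for HSF1 and BAG3. The siDRAIC and siDRAIC-NC libraries overlap in every panel.

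In the libraries labelled siDRAIC no member was called against siDRAIC-NC. The fitted log2 changes of all 8 tested members were below 0, from -0.06 for HSPB1 to -0.39 for HSP90AA1 and BAG3, as were 50.5% of all tested genes. Their median was -0.26, against -0.00 for all 15986 genes. By edgeR 0 of 8 were called, where 0.713% of genes were (0.582% higher, 0.131% lower), and 0 of 8 had an unadjusted p below 0.05. That last count was 4 of 8 with the replicate number as a block, and 3 of 8 without siDRAIC replicate 3 or without siDRAIC-NC replicate 1. Of all tested genes, 1713 of 15986 had an unadjusted edgeR p below 0.05, and 3323 of 15986 with the block. The numbers were 1920 of 16534 without siDRAIC replicate 3 and 3639 of 16535 without siDRAIC-NC replicate 1. The libraries of the 2 groups overlapped for all 8 members, while 15.6% of tested genes had no overlap (9.75% higher, 5.86% lower). DESeq2 and limma-voom called 0 as well. Mitochondrial genes took 9.16% to 10.9% of counts in the libraries labelled siDRAIC and 8.08% to 8.91% in siDRAIC-NC, and their part in these values was not tested.

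The spread between replicates was wide. HSP90AA1 had 830.1, 375 and 568 CPM in the libraries labelled siDRAIC, against 1134, 675 and 488 CPM in siDRAIC-NC (log2 -0.39, SE 0.32, edgeR adjusted p = 0.731). HSPH1 had 225, 111 and 253 CPM against 326, 186 and 227 CPM (log2 -0.35, SE 0.27, edgeR adjusted p = 0.704). For both genes, replicates 1 and 2 labelled siDRAIC lay below the controls with the same numbers and replicate 3 lay above.

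BAG3 had 90.1, 71.5 and 101 CPM in the libraries labelled siDRAIC, against 98.5, 103 and 135 CPM in siDRAIC-NC (log2 -0.39, SE 0.19, edgeR adjusted p = 0.494). HSP90AB1 had 1514, 1372 and 1921 CPM against 1893, 1833 and 2250.4 CPM (log2 -0.34, SE 0.17, edgeR adjusted p = 0.503). For both genes each library labelled siDRAIC was lower than the control of its number, though the ranges overlapped.

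HSPA8 had 1525, 1394 and 2295 CPM in the libraries labelled siDRAIC and 1809, 1761 and 2115 CPM in siDRAIC-NC, with replicate 3 the highest of both groups (log2 -0.15, SE 0.19, edgeR adjusted p = 0.831). HSPB1 had 822, 963 and 666 CPM against 735, 964 and 811 CPM (log2 -0.06, SE 0.19, edgeR adjusted p = 0.952). The estimate of HSPB1 changed sign when a library was left out, to 0.08 without siDRAIC replicate 3 and 0.06 without siDRAIC-NC replicate 2. DNAJB1 (163, 128 and 145 CPM against 168, 126 and 192 CPM) and HSF1 (166, 188 and 161 CPM against 149, 214 and 201 CPM) had log2 changes of -0.18 (SE 0.18) and -0.16 (SE 0.19), neither past the test. Same-numbered libraries deviated together in this experiment, and with the replicate number as a block edgeR called 1404 of 15986 genes but again 0 of 8 members, the lowest adjusted p being 0.0607 for HSPH1.

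Whether the 2 siRNA changes differed was tested as an interaction over all 12 libraries, subtracting the hnRNPA2B1 siRNA change from that seen with the siDRAIC label. It was below 0 for 7 of 8 members and for 55.5% of all tested genes, and 0 of 8 were called by edgeR, where 0.211% of 17091 genes were (0.105% higher and 0.105% lower). The difference was -0.61 for HSPA8 (SE 0.21, edgeR adjusted p = 0.358) and -0.81 for HSP90AA1 (SE 0.38, edgeR adjusted p = 0.554). The count of unadjusted p below 0.05 was 1 of 8. It was 5 of 8 with the replicate block, whether in both experiments or in the DRAIC experiment only. Of all 17091 tested genes, 1561 had an unadjusted edgeR p below 0.05. That number was 2471 with the block in both experiments and 3151 with it in the DRAIC experiment only. DESeq2 and limma-voom also called 0 of 8 members.

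A replicate block in the DRAIC experiment only was added after seeing the data, which alone are the ground for pairing its libraries by number. With it both passed, HSPA8 at -0.64 (edgeR adjusted p = 0.00631) and HSP90AA1 at -0.82 (edgeR adjusted p = 0.0208). That fit called 640 genes against 36 without the block. Without the low-count filter both passed too, at edgeR adjusted p of 0.0291 and 0.000934. HSPA8 also passed without siDRAIC replicate 3 (-0.86, edgeR adjusted p = 0.0259).

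**Figure D3:**
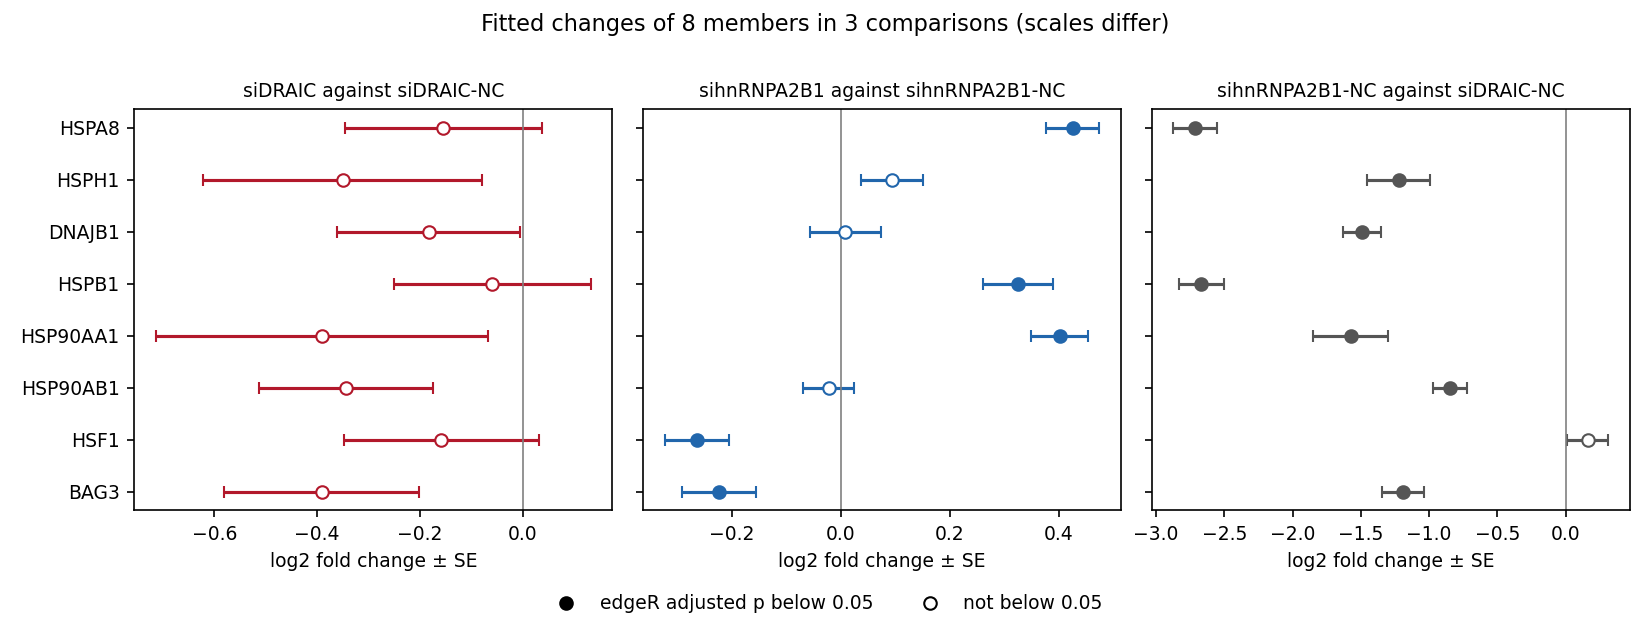
Fitted log2 fold changes of the 8 tested members in 3 comparisons, with bars for 1 SE and filled points where the edgeR adjusted p was below 0.05 (the horizontal scales differ). The siDRAIC panel has open points only, the sihnRNPA2B1 panel has 3 filled points above 0 and 2 below, and the control comparison has 7 filled points below 0.

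Larger differences lay between the experiments. Compared with siDRAIC-NC, the sihnRNPA2B1-NC libraries were lower in all tested members except HSF1, most of all in HSPA8 and HSPB1. Both groups are controls, so their difference cannot be told apart from the experiment they belong to (separate tables, and any difference in culture, handling or control siRNA). By edgeR 7 of 8 members were called lower, where 26.6% of 17091 genes were called lower, 25.0% higher and 51.6% in either direction. The 7 called members also had no overlap between the groups, against 57.8% of tested genes (28.6% higher, 29.2% lower).

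HSPA8 had 294, 291 and 292 CPM in sihnRNPA2B1-NC against 1809, 1761 and 2115 CPM in siDRAIC-NC, 0.153 times the level (log2 -2.71, SE 0.16, edgeR adjusted p = 7.06e-09). HSPB1 averaged 134 ± 7.92 CPM against 837 ± 117 CPM, or 0.157 times (log2 -2.67, SE 0.16, edgeR adjusted p = 8.12e-09). The factors of these genes, which belong to different chaperone families, differed by less than 1 SE. HSP90AA1 (-1.57), DNAJB1 (-1.49), HSPH1 (-1.22) and BAG3 (-1.19) were lower by less, and HSP90AB1 (-0.85, SE 0.13, edgeR adjusted p = 4.84e-05) by the least of the called members. HSF1 had 209, 233 and 199 CPM against 149, 214 and 201 CPM, with a log2 difference of 0.16 (SE 0.15, edgeR adjusted p = 0.383) that turned to -0.02 without siDRAIC-NC replicate 1.

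HSPA1A had 0 counts in sihnRNPA2B1-NC against 17 in siDRAIC-NC. With a floor of 3 counts over the group in place of 0, it was 5.28-fold lower, and 3.15-fold lower without siDRAIC-NC replicate 1. The siDRAIC-NC level was taken as exact, so neither fold is a lower bound. The floor treats counts as independent, and since low counts tended to come in pairs both folds may be too high. The 10 members together took 0.221% to 0.224% of all counts in sihnRNPA2B1-NC and 0.586% to 0.642% in siDRAIC-NC. The siRNA groups lay near their own controls, at 0.241% to 0.247% in sihnRNPA2B1 and 0.460% to 0.611% in the libraries labelled siDRAIC. Mitochondrial genes took 6.05% to 6.27% of counts in sihnRNPA2B1-NC and 8.08% to 8.91% in siDRAIC-NC, a difference whose part in these levels was not tested.

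Other chaperone genes were followed in 9 lists. No gene of these lists was called in the libraries labelled siDRAIC, where 0.713% of all tested genes were. After hnRNPA2B1 siRNA 30.4% of all tested genes were called (15.1% higher, 15.4% lower), the share to set beside each list. After hnRNPA2B1 siRNA, 3 of 11 tested genes of the other HSP70 and HSP110 genes rose and 1 fell. HSPA5, the HSP70 of the endoplasmic reticulum known as BiP, rose to 2111 ± 21.6 CPM in sihnRNPA2B1, against 1628 ± 26.2 CPM in sihnRNPA2B1-NC (log2 0.34, edgeR adjusted p = 7.71e-07). HSPA4L (0.31) and HSPA13 (0.22) rose as well. HSPA6, a strictly inducible HSP70, fell on 8 summed counts against 32 (-2.06, edgeR adjusted p = 0.0315).

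Of 24 J-domain genes 5 rose and 5 fell, where 15.1% of all tested genes were called higher and 15.4% lower. DNAJA1, a cytosolic partner of HSPA8, rose by 0.37, DNAJB5 by 0.52 and DNAJC2, which acts at the ribosome, by 0.32 on the log2 scale. DNAJB6, which suppresses aggregation of polyglutamine proteins, fell by 0.48 (316 ± 15.3 against 432 ± 18.2 CPM, edgeR adjusted p = 2.98e-08). Of 3 tested small heat shock genes, CRYAB, alpha-B-crystallin, rose by 1.23 from a low level (1.99 ± 0.253 against 0.820 ± 0.229 CPM), HSPB9 rose on 47 summed counts against 12, and HSPB8, a partner of BAG3, fell by 0.35.

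Among 18 other HSP90 genes and co-chaperones, FKBP4 (0.31), ST13 (0.23) and AHSA1 (0.24) rose, and STUB1, the ubiquitin ligase CHIP, fell by 0.23. Of all tested genes, 15.1% were called higher and 15.4% lower. All 3 called of 7 BAG proteins and exchange factors fell, namely HSPBP1 (-0.47), BAG1 (-0.25) and BAG6 (-0.17). Of 11 chaperonins 3 rose and 2 fell, among them the subunits CCT5 (0.23), CCT2 (0.21), CCT7 (-0.19) and CCT4 (-0.18), which sit in the same ring complex. Of 5 other heat shock factors and their binding proteins, HSBP1L1 (-0.29) and HSF2BP (-0.47) fell.

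Other heat-inducible genes went both ways, with 2 of 11 up and 5 down, against 15.1% of all tested genes higher and 15.4% lower. ZFAND2A (-0.49) and PPP1R15A (-0.33) fell, and the haem oxygenase gene HMOX1 rose by 0.36. Of 6 tested autophagy genes linked to BAG3, the receptor SQSTM1 (p62) fell to 1272 ± 36.9 CPM in sihnRNPA2B1, against 1583 ± 66.9 CPM in sihnRNPA2B1-NC (log2 -0.35, edgeR adjusted p = 2.93e-06). GABARAPL1 rose by 0.27.

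Between the control groups the lists did not all lie on the same side. There 51.6% of all 17091 tested genes were called, 25.0% higher and 26.6% lower, the share to set beside each list. Of 18 other HSP90 genes and co-chaperones, 11 were lower in sihnRNPA2B1-NC than in siDRAIC-NC and 1 was higher, with AHSA1 (-1.43), FKBP4 (-1.23), FKBP5 (-1.21) and STIP1 (-0.77) among the lower. J-domain genes were higher in 9 of 24 and lower in 4, led by DNAJB2 (2.10), DNAJB9 (1.92), DNAJB6 (1.16) and, lower, DNAJC8 (-0.65). The other HSP70 and HSP110 genes split 4 to 4, with HSPA5 (1.05), HSPA9 (1.20) and HYOU1 (0.91), which work in organelles, higher and HSPA12A lower (-1.96).

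Small heat shock genes split as well, HSPB8 being higher (1.42) and HSPB9 (-2.51) and CRYAB (-0.90) lower. Chaperonins were lower in 3 of 11, HSPE1 (-1.15), CCT3 (-0.77) and CCT5 (-0.35), and higher in CCT6B (1.90). Of all tested genes, 26.6% were called lower and 25.0% higher. Of the BAG list BAG5 was higher (0.59) and BAG2 (-0.46) and BAG6 (-0.32) were lower. HSBP1 was lower (-0.58), and HSBP1L1 (0.51) and HSF2BP (0.87) were higher.

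All 11 other heat-inducible genes were called between the control groups, 5 higher and 6 lower, against 51.6% of all tested genes. PPP1R15A, which reverses the block of translation under stress, averaged 879 ± 36.5 CPM in sihnRNPA2B1-NC against 61.4 ± 14.9 CPM in siDRAIC-NC (log2 3.81, edgeR adjusted p = 3.01e-09). IER5 was also higher (1.08), while CACYBP (-1.22) and UBB (-1.32) were lower. Of the BAG3-linked autophagy genes, MAP1LC3B had 485 ± 5.88 against 46.9 ± 4.61 CPM (3.36), GABARAPL1 (1.06) was higher, and FLNC was lower (-2.97).

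**Figure D4:**
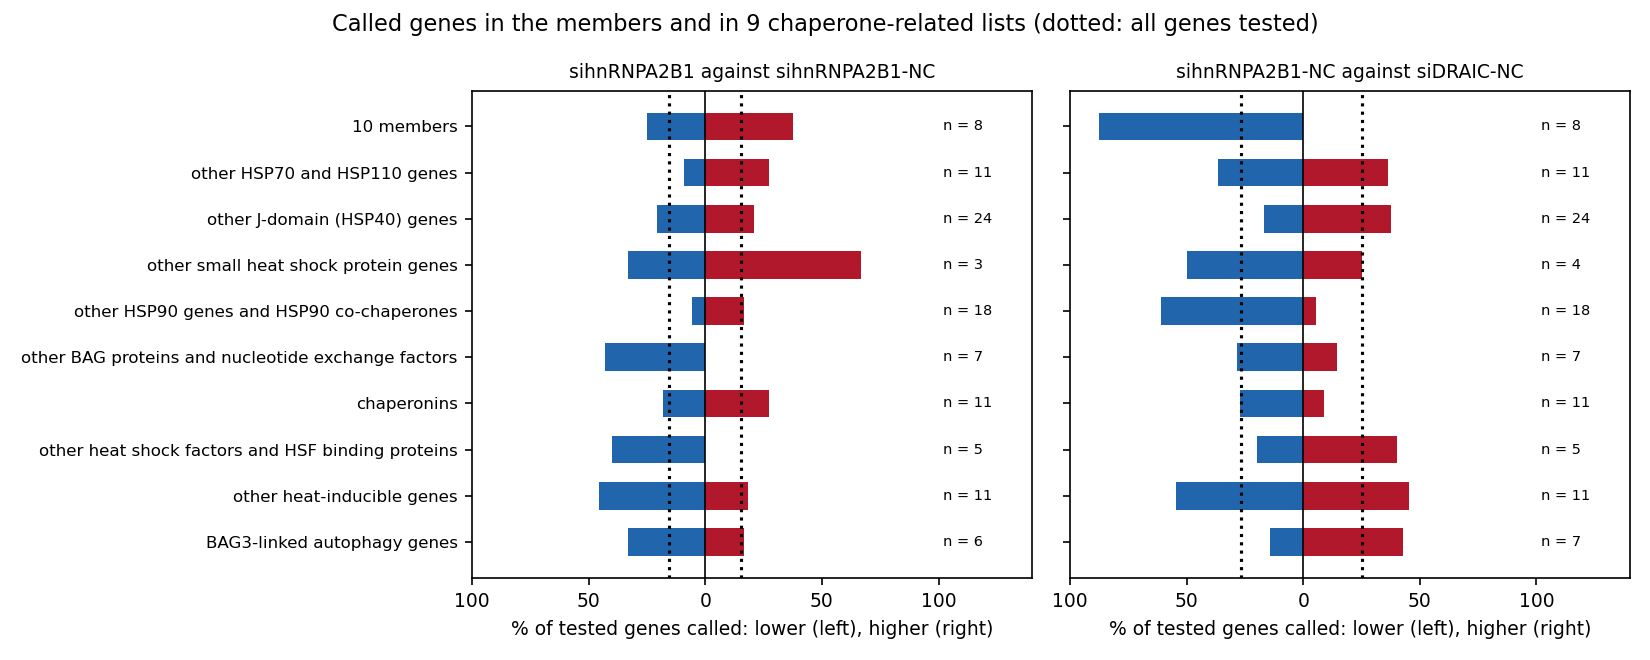
Share of tested genes called lower (blue, left) or higher (red, right) among the members and in 9 chaperone-related lists, for sihnRNPA2B1 against sihnRNPA2B1-NC and for sihnRNPA2B1-NC against siDRAIC-NC, with dotted lines for the share of all genes tested. In the control comparison the members (7 of 8) and the HSP90 list (11 of 18) extend furthest to the lower side.

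The genes whose pattern over the 12 libraries was most like that of HSPA8 were sought among the 8973 genes with a mean of at least 10 CPM. Likeness was the root mean square difference of log2 CPM, each gene centred on its own mean. HSPA8 itself deviated by 1.22 from its mean. The 5 nearest were CDC6 (0.223), MCM4 (0.237), DHCR7 (0.239), RRM2 (0.247) and MCM3 (0.252), none of them a chaperone. The distances are a description over 12 libraries that fall into 2 experiments. HSPA1B lay below 10 CPM, so no neighbours are given.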

How the data were processed

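RNA sequencing of 769-P cells gave 12 libraries in 4 groups of 3. The authors deposited unnormalized counts (whole numbers for each Ensembl gene), 1 table for each experiment. The submitters' processing notes name STAR 2.7.10a, fastp 0.23.2, DESeq2 and StringTie, with hg38 as build. The sources used here do not give the counting program, its annotation, its use of strand or its treatment of reads matching several genes. CPM and TPM were computed here. Of 60617 IDs, 60261 had a symbol. GENCODE 29, which holds 58542 of them, gave coordinates (GRCh38) and lengths. There were 0 lines naming no gene.

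The 2 experiments were fitted separately in edgeR 4.0.16 (R 4.3.3), with filterByExpr at a minimum count of 10, TMM factors (0.933 to 1.05), the robust two-sided quasi-likelihood test and Benjamini-Hochberg adjustment over all tested genes. The difference of changes and the control comparison used all 12 libraries. SE is the absolute log2 change over the square root of F. The fits were tested on simulated data. The log2 changes planted there were larger than those of the members called after hnRNPA2B1 siRNA, and no effect was shared by replicate number. That test therefore does not cover changes as small as these. The members and lists were chosen with earlier results of these data known. The genes named are the members, both siRNA targets, up to 4 called genes of each list by smallest p (some of these are not reported here), and the 5 nearest to HSPA8. BAG6 as a neighbour, PAX8, CA9 and the shared-sequence check were chosen after values were seen. Markers were listed to check cell identity.

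To check pairing, deviations from the group means were correlated between libraries. Same-numbered libraries gave 0.466, 0.194 and 0.271 in the DRAIC experiment, where the numbers are taken to pair the samples from the data alone, and 0.0163, -0.0116 and -0.0533 in the other, where they do not. Alternatives were RLE factors, DESeq2 1.42.0, limma-voom (limma 3.58.1), no filter, 1 CPM in 3 libraries, the block, all 12 libraries in 1 fit, HSPA1A and HSPA1B summed, each library left out, and other lengths.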

Additional observations from a re-analysis of the deposited data

How the results depend on the processing

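Of 536 values of members under alternatives, 517 kept their direction and their side of the threshold, 6 lost a call, 6 gained one and 7 changed sign. The 517 include the values with HSPA1A and HSPA1B summed. That sum did not pass the filter either, so these values could not change. The count of called members was 0 for siDRAIC under every alternative, and 7 for the control comparison, the 6 control libraries alone included (chosen after seeing the data), except 8 of 10 tested without the filter, HSPA1A being added. For sihnRNPA2B1 it was 5, with 4 to 5 when a library was left out and 0 with all 12 libraries in 1 fit. For the difference it was 0, with 2 without the filter, 1 with the replicate block in both experiments, 2 with the replicate block in the DRAIC experiment only (chosen after seeing the data), and 0 to 1 when a library was left out. The replicate block changed no other call; with it sihnRNPA2B1 had 5 members and 4414 genes called, but its numbers do not pair those libraries.

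When single libraries were left out, sign changes fell on uncalled values. The ranges were -0.23 to 0.0771 for HSPB1 in siDRAIC, -0.038 to 0.0648 for DNAJB1 in sihnRNPA2B1, -0.12 to 0.21 for HSF1 in the difference and -0.0216 to 0.30 for HSF1 between controls. With longest transcripts as lengths, HSPA8 ranked 2 (in place of 3), HSPB1 3 (2), HSPH1 7 (8) and BAG3 8 (7) over the mean of the groups.

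All genes called in siDRAIC numbered 114, against 392 with DESeq2, 45 with limma-voom, 520 without a filter, 61 with the stricter filter, 1404 with the block, 665 with 12 libraries, and 9 (without siDRAIC-NC replicate 2) to 1035 (without siDRAIC-NC replicate 1) when a library was left out. For the difference 36 became 194 with DESeq2, 263 without a filter, 258 with the block, and 9 to 349. For sihnRNPA2B1, 4781 became 283 with 12 libraries. The causes were not tested. Depth limits what can be said of HSPA1A and HSPA1B, which have few or 0 counts. The fold for HSPA1A between controls, by the floor of 3 counts, was 3.15 to 7.65 when each siDRAIC-NC library was left out, an alternative chosen after seeing the data.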
